A study of Mus musculus with 10 samples.

Results

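The genes described are 10 members of the Kruppel-like factor family: *Klf2*, *Klf3*, *Klf4*, *Klf5*, *Klf6*, *Klf7*, *Klf10*, *Klf11*, *Klf12* and *Klf13*. Not among them are 7 other family genes with a row, *Klf9*, *Klf15*, *Klf16* and 4 with few or no counts. The 10 members were taken by symbol from a deposited table of read counts with 24421 rows, and all 10 had a row and passed the low-count filter. The libraries came from calf muscle (gastrocnemius with plantaris) of 10 male C57BL/6 mice that were 12 weeks old and had fasted for about 16 h. In the ethanol group 5 mice (numbers 51, 57, 59, 60 and 62) were injected intraperitoneally with ethanol at 3 g/kg, and in the saline group 5 mice (numbers 32, 34, 36, 38 and 39) were injected with the same volume of saline. Muscle was taken under isoflurane 1 h after the injection, still in the fast, so fasting, injection and anaesthesia were common to both groups. No member passed a false discovery rate (FDR) of 0.05 in edgeR's test or in any alternative tried, and the values below describe how each member stood in each mouse.

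Kruppel-like factors are transcription factors that bind GC-rich and CACCC elements through zinc fingers at the end of the protein, and they differ in the regions before the fingers, which recruit coactivators or corepressors. KLF2, KLF4, KLF5, KLF6 and KLF7 mostly act as activators, although KLF4 can also repress. KLF3 and KLF12 recruit the corepressor CtBP, and KLF10, KLF11 and KLF13 recruit the SIN3A-histone deacetylase complex. Several members, among them *Klf2*, *Klf4*, *Klf6* and *Klf10*, are induced quickly by growth factors, flow or stress, and in muscle KLF2 and KLF4 are best known from the endothelium, KLF5 from lipid oxidation, and KLF3 and KLF10 from myofibre differentiation and metabolism.

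The promoters of 4 members are shown because the results turn on these genes: *Klf2* and *Klf4*, the endothelial pair, *Klf6*, the member whose groups did not overlap, and *Klf11*, which ran with 1 saline library. Each is the 250 bases before the RefSeq start on GRCm38.p6, read 5′ to 3′ on the gene's strand: chr8:72318812-72319061 (plus strand), chr4:55532476-55532725 (minus), chr13:5861239-5861488 (plus) and chr12:24651121-24651370 (plus). Capitals mark GGGCGG (the GC box, a KLF and SP element) and CACGTG (the E-box bound by CLOCK-BMAL1 and other basic helix-loop-helix factors) on either strand, and the MEF2 consensus.
Klf2: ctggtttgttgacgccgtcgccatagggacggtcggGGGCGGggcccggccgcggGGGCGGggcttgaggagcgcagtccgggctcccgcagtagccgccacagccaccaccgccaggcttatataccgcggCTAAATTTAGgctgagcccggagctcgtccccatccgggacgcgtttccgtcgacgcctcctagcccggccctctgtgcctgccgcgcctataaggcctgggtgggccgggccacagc
Klf4: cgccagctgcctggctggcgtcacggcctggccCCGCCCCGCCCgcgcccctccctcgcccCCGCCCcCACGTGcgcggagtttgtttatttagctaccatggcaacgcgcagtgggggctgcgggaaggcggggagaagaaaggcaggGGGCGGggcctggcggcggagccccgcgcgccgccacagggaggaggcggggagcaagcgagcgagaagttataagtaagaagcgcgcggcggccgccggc
Klf6: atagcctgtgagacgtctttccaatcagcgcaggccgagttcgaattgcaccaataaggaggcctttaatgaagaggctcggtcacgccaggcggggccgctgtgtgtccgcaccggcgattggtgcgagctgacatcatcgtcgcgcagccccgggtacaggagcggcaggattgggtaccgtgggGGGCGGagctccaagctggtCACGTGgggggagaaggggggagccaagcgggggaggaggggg
Klf11: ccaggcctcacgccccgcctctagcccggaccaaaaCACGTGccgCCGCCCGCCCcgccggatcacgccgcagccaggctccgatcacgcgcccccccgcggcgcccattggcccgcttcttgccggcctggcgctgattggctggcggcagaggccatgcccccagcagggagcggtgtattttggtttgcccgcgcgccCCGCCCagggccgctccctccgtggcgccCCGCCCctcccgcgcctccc
RefSeq promoters were found for 8 of the 10 members, not for *Klf5* and *Klf10*. Against the GENCODE M21 gene models, the *Klf7* and *Klf12* windows lie wholly inside the gene, those of *Klf3*, *Klf11*, *Klf2* and *Klf6* reach into it by 133, 97, 29 and 7 bases, and those of *Klf4* and *Klf13* lie outside it. GGGCGG was present on either strand in 7 of these 8 windows and in 32.7% of all 32851 promoter windows of the same length. CACGTG was present in *Klf4*, *Klf6* and *Klf11*, 3 of 8, against 6.02% of all windows. A MEF2 consensus was found in *Klf2* alone, 118 bases before the start, and in 2.92% of all windows. MEF2 factors, activated by the kinase ERK5, are the known route of *Klf2* induction. CACCC, the core of the KLF element itself, was present in 5 of 8 and in 52.0% of all windows. Its letters can share bases with a GGGCGG match on the other strand. The cyclic AMP element TGACGTCA was in 0 of 8 windows (1.55% of all), as were the CArG box of serum response factor (1.47%) and the palindromic glucocorticoid element (0.00913%). TATAAA was present in *Klf12* alone (12.4% of all). These are letter matches in 250 bases and say nothing of binding. The shares over all windows were not matched for G and C content, so they do not show enrichment in the members. Over the 8 windows, G or C made up between 48% of positions (*Klf12*) and 78.4% (*Klf3*).

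Library totals ran from 20.3 to 31.3 M counts with ethanol and from 32.0 to 42.7 M with saline. The members were therefore read at different precision: *Klf7* had between 40 and 122 counts per library, *Klf5* between 89 and 326, *Klf12* between 96 and 249, and *Klf6* between 1697 and 4209. Fibre genes marked all libraries as muscle, the 8 listed ones summing to between 125750 and 151040 library-scaled counts (CPM, counts-per-million) with ethanol and between 120790 and 149940 CPM with saline. Lymphocyte markers summed to at most 0.567 CPM with ethanol and 0.680 CPM with saline. Of the 6 erythroid markers, the 4 globin genes were listed at 0 in all libraries. Saline 36 lay apart from the other saline libraries for several members, and the fold changes that rest on it are given with and without it.

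Per kilobase of annotated exon, *Klf2*, encoding the flow-responsive factor of endothelium, was the most abundant member and *Klf7* the least. *Klf2* averaged 38.2 ± 10.1 CPM per kb with ethanol and 36.3 ± 10.9 with saline (SD, n = 5 each). *Klf4* averaged 20.1 ± 5.19 and *Klf6* 18.5 ± 1.15 CPM per kb with ethanol, against 18.7 ± 3.13 and 23.5 ± 3.43 with saline, so the order of these genes differed between the groups, with ranges that overlapped in each. *Klf10* followed at 11.03 ± 2.06 CPM per kb with ethanol and 12.9 ± 5.55 with saline, *Klf13* at 5.77 ± 0.92 with ethanol and 5.01 ± 0.89 with saline, and *Klf11* at 2.86 ± 0.36 with ethanol and 3.49 ± 1.44 with saline (2.87 ± 0.43 with saline without saline 36, SD, n = 4). With ethanol the ranges of *Klf6*, *Klf10*, *Klf13* and *Klf11* did not overlap their next lower neighbour. With saline *Klf10* and *Klf11* did not, while *Klf13* overlapped *Klf11*. *Klf5*, *Klf3* and *Klf12* lay between 0.71 and 0.87 CPM per kb with ethanol, against 0.79 and 1.28 with saline, and neighbours in level overlapped in each group. *Klf7* stood below them at 0.34 ± 0.078 with ethanol and 0.32 ± 0.057 with saline. The lengths are unions of all annotated exons, which makes a gene with a long rare isoform look less abundant: the exon union of *Klf3* is 11243 bases and its longest transcript 5221.

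**Figure D1:**
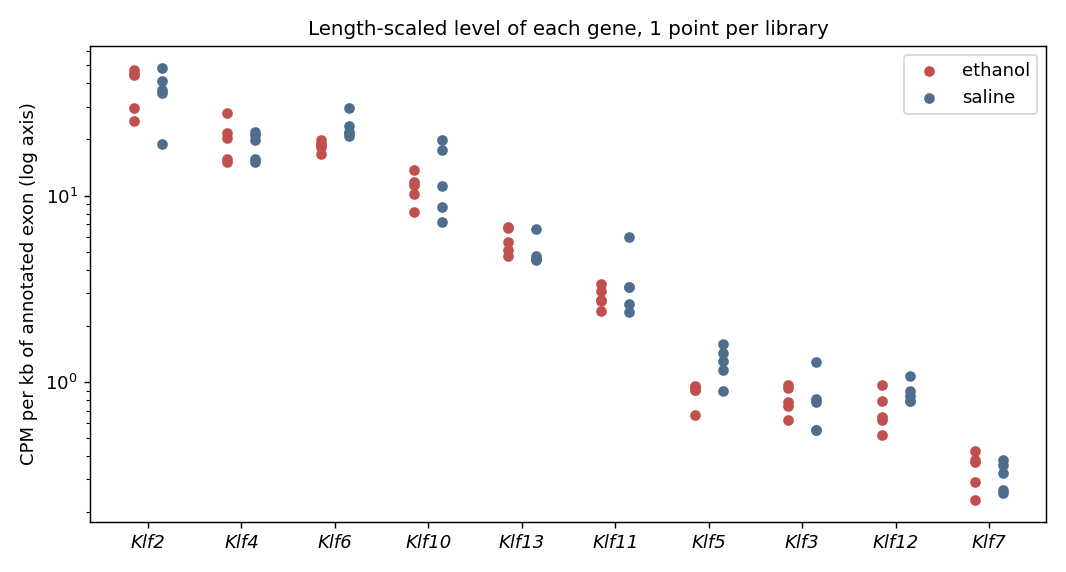
CPM per kilobase of annotated exon (log axis) of the 10 genes, ordered by their ethanol mean, with 1 point per library (ethanol left of saline). *Klf2*, *Klf4*, *Klf6* and *Klf10* form the upper range, between 7.24 and 48.6, and *Klf7* lies between 0.23 and 0.43.

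The ethanol and saline libraries were compared with edgeR's quasi-likelihood test over 13180 genes. At FDR 0.05 it called 0 of the 10 members and 0% of all tested genes (smallest FDR of a member 0.287). DESeq2 called 55 genes, of which 0 were members, and limma-voom called 0. At an unadjusted p under 0.05 there were 2 members, *Klf6* and *Klf5*, both lower with ethanol, with edgeR, DESeq2 and limma-voom alike. That is 20% of the members, where 12.1% of all tested genes passed the same p in either direction, 5.91% lower and 6.22% higher with ethanol. With 10 members these counts lie close to the background and are not read as a result about the family. Log2 fold changes were negative for 5 members and positive for 5, where 49.8% of all tested genes were negative. The members' median was -0.10, against 0.00096 over all tested genes. The half-width of the 95% interval ran from 0.20 to 0.63 log2 units over the members, against a median of 0.25 over all genes. A shift smaller than its half-width leaves 0 inside the interval, and the larger shifts of *Klf5* and *Klf6* did not pass FDR 0.05 either.

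**Figure D2:**
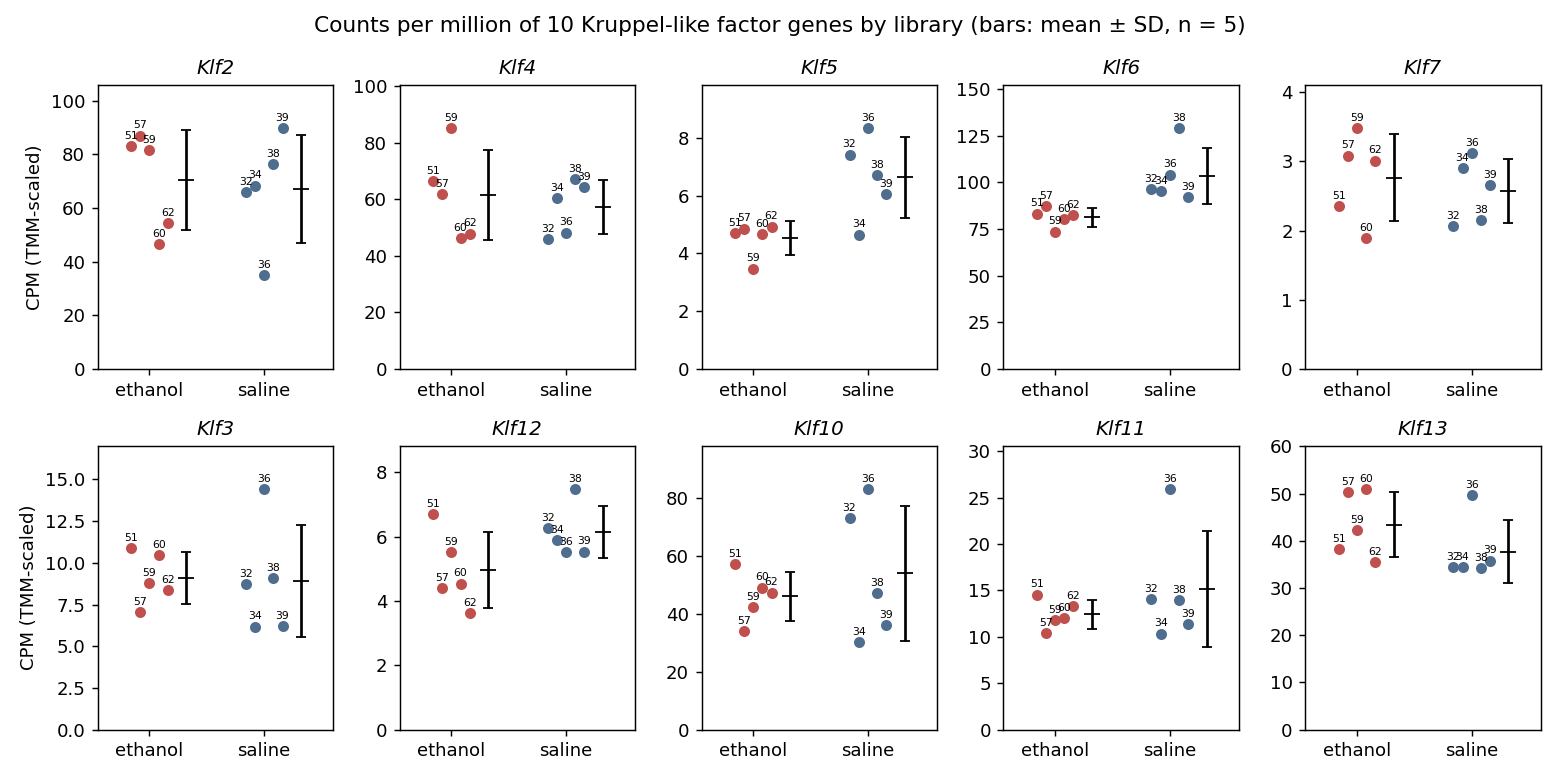
TMM-scaled CPM of each gene in each library, with ethanol mice left and saline mice right, animal numbers beside the points, and bars for the mean ± SD (n = 5 each). The *Klf6* points of the groups do not overlap (73.6 to 87.4 against 92.0 to 129 CPM), the *Klf5* points overlap through saline 34, and saline 36 lies high for *Klf3*, *Klf11* and *Klf13* and low for *Klf2*.

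*Klf6* (GRCm38 chromosome 13, 5861482 to 5870394, plus strand), an immediate early activator with a CACGTG and a GGGCGG in the promoter shown above, held 83.3, 87.4, 73.6, 80.3 and 82.3 CPM in ethanol mice 51, 57, 59, 60 and 62, against 96.3, 95.3, 104, 129 and 92.0 CPM in saline mice 32, 34, 36, 38 and 39. Every ethanol library lay below every saline library, which was so for 1 of 10 members, and for 2.18% of all tested genes in either direction (0.819% lower and 1.36% higher with ethanol). Its log2 fold change was -0.34 ± 0.094 (SE, edgeR FDR = 0.287), a ratio of 0.79 with a 95% interval from 0.68 to 0.91. Saline 38 held the highest level, and leaving it out gave a log2 fold change of -0.25. In bulk muscle, fewer cells of a type and less RNA per cell cannot be told apart, and this holds for every gene here.

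*Klf5* (chromosome 14, 99298691 to 99315036, plus strand), known in muscle as a regulator of lipid oxidation genes, was read at 4.72, 4.86, 3.48, 4.68 and 4.93 CPM in the ethanol mice, against 7.43, 4.65, 8.34, 6.71 and 6.06 CPM in the saline mice, in the same order of animals. Of the ethanol libraries 5 of 5 lay below the saline mean, and the groups overlapped because saline 34 lay within the ethanol range. Its log2 fold change stood at -0.55 ± 0.15 (SE, edgeR FDR = 0.287), a ratio of 0.68 with a 95% interval from 0.54 to 0.86. It was -0.46 without saline 36, -0.65 without saline 34, and -0.33 with 1 surrogate variable. The lowest *Klf5* of each group, in ethanol 59 and saline 34, came with the lowest fibroblast marker sum of each group, 883 and 872 CPM, where the other libraries held between 996 and 1208 CPM with ethanol and between 973 and 1111 CPM with saline. In ethanol 59 the endothelial, macrophage and Schwann cell marker sums were also the lowest of the group, at 451, 53.0 and 245 CPM. The same held in saline 34, at 414, 52.4 and 253 CPM. The summed fibroblast markers had a mean of 1082 ± 137 CPM with ethanol and 986 ± 84.9 CPM with saline (SD, n = 5 each). Of the 7 markers 6 had positive fold changes, where 49.8% of all tested genes were negative. The part of these cell types in the *Klf5* values was not tested.

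*Klf2* (chromosome 8, 72319033 to 72321656, plus strand) held 83.1, 87.0, 81.7, 46.4 and 54.5 CPM in ethanol mice 51 to 62, against 65.9, 68.4, 35.1, 76.5 and 89.8 CPM in saline mice 32 to 39. Both groups had high and low mice, ethanol 60, ethanol 62 and saline 36 being the low ones. For *Klf2* the log2 fold change was 0.073 ± 0.26 (SE, edgeR FDR = 0.933), a ratio of 1.05 with a 95% interval from 0.71 to 1.57. Its sign depended on the processing: -0.096 without saline 36, -0.016 without ethanol 57, -0.030 with the GC trend removed and -0.19 with 1 surrogate variable.

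*Klf4* (chromosome 4, 55527143 to 55532466, minus strand), a partner of KLF2 in endothelium and a differentiation factor of epithelia and macrophages, held 66.3, 61.7, 85.1, 46.2 and 47.8 CPM with ethanol, against 45.9, 60.4, 48.2, 67.0 and 64.2 CPM with saline. The groups overlapped, with ethanol 59 alone above the saline range. For *Klf4* the log2 fold change was 0.11 ± 0.17 (SE, FDR = 0.839), a ratio of 1.08 with a 95% interval from 0.83 to 1.39, and it was -0.047 without ethanol 59 and -0.065 with 1 surrogate variable.

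Endothelial markers were set beside this pair. The 9 listed genes summed to 511 ± 54.3 CPM with ethanol (range 451 to 585) and 451 ± 44.3 CPM with saline (range 414 to 526). Positive fold changes were found for 8 of 9, among them the VEGF receptor gene *Kdr* (0.46 ± 0.14, log2 ± SE, FDR = 0.287). This was not particular to them: 7 of 7 adipocyte, 6 of 7 macrophage, 5 of 7 mural and 4 of 5 Schwann cell markers were positive. So were 5 of 8 fibre and 3 of 5 satellite cell markers, where 49.8% of all tested genes were negative. The lowest *Klf2* levels came from libraries with high endothelial sums: as a share of that sum, *Klf2* was 7.94% in ethanol 60 and 6.68% in saline 36, against 10.3% to 18.8% in the other ethanol and 14.5% to 20.8% in the other saline libraries. *Klf4* was also the lowest share of its group in these libraries, but nearer to the next one. It was 7.89% of the sum in ethanol 60 and 9.05% in ethanol 62, and 9.16% in saline 36 and 10.1% in saline 32. The remaining libraries held 12.6% to 18.8% with ethanol and 14.6% to 15.6% with saline. The part of endothelial content in the levels of the pair was not tested.

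*Klf7* (chromosome 1, 64029447 to 64122282, minus strand), known for a role in neurons and in blocking adipocyte differentiation, lay between 1.89 and 3.48 CPM with ethanol (median 3.01) and between 2.06 and 3.12 CPM with saline (median 2.65). The groups overlapped almost fully. With ethanol minus saline, the log2 fold change was 0.10 ± 0.18 (SE, FDR = 0.850), a ratio of 1.08 with a 95% interval from 0.82 to 1.40. Without ethanol 59 it was 0.0076 and without ethanol 60 it was 0.21. GENCODE M21 places exons of a pair of antisense RNAs over *Klf7* and of another over *Klf3*. None of these has a row in the table, and their reads could not be separated without strand.

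*Klf3* (chromosome 5, 64803388 to 64832901, plus strand), a CtBP-recruiting repressor that also binds muscle gene promoters, was read at 10.9, 7.04, 8.80, 10.5 and 8.35 CPM in the ethanol mice, against 8.74, 6.18, 14.4, 9.11 and 6.20 CPM in the saline mice. The ethanol values lay inside the saline range, whose top was saline 36. Its log2 fold change was 0.024 ± 0.22 (SE, FDR = 0.974), a ratio of 1.02 with a 95% interval from 0.73 to 1.42. It was 0.26 without saline 36, 0.43 with 1 surrogate variable (edgeR FDR = 0.347), and negative without ethanol 51, ethanol 60, saline 34 or saline 39, between -0.029 and -0.082.

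*Klf12* (chromosome 14, 99870632 to 100284679, minus strand), a CtBP-recruiting repressor first known for silencing an AP-2 gene, held 6.69, 4.39, 5.51, 4.54 and 3.63 CPM with ethanol, against 6.27, 5.88, 5.53, 7.48 and 5.53 CPM with saline. Of the ethanol libraries 4 of 5 lay below the lowest saline library, and ethanol 51 lay among the higher saline ones. Its log2 fold change was -0.30 ± 0.15 (SE, edgeR FDR = 0.446), a ratio of 0.81 with a 95% interval from 0.64 to 1.02. Leaving out ethanol 51, the 1 ethanol library that overlapped, gave -0.44 (edgeR FDR = 0.226). The groups then did not overlap, which followed from that choice. The log2 fold change was -0.21 without ethanol 62 and -0.22 without saline 38.

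**Figure D3:**
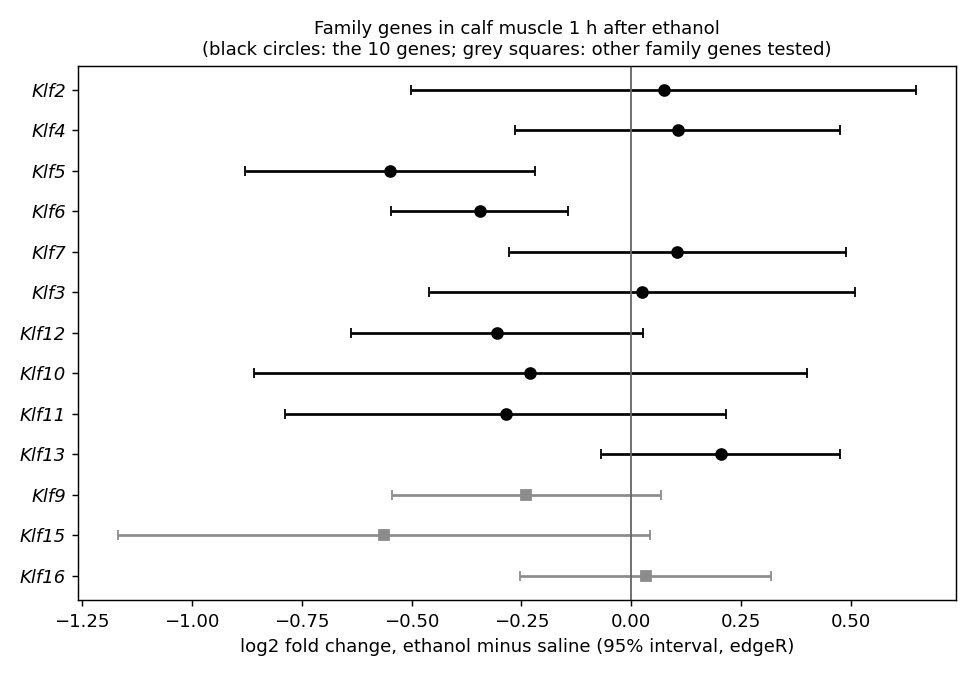
Log2 fold change of each gene, ethanol minus saline, with its 95% interval from edgeR. Black circles are the 10 genes and grey squares *Klf9*, *Klf15* and *Klf16*. Of the 10 genes, the intervals of *Klf5* (-0.88 to -0.22) and *Klf6* (-0.55 to -0.14) lie below 0 without adjustment for the number of genes tested, and the other 8 include 0.

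*Klf10* (chromosome 15, 38291463 to 38300706, minus strand), also called TIEG1, a TGF-beta-induced repressor that recruits SIN3A, held 57.4, 34.1, 42.5, 49.1 and 47.4 CPM with ethanol, against 73.2, 30.2, 83.2, 47.3 and 36.1 CPM with saline. The saline mice spread more widely, with a coefficient of variation of 42.9% against 18.6% in the ethanol mice, and enclosed all ethanol values. The log2 fold change was -0.23 ± 0.28 (SE, FDR = 0.780), a ratio of 0.85 with a 95% interval from 0.55 to 1.32. Without saline 36 it was -0.025, without saline 32 -0.095, without ethanol 57 -0.139, without ethanol 51 -0.32, and without saline 34 -0.38, so its size depended on which mouse was left out. With 1 surrogate variable its sign turned, to 0.22. Saline 32 and saline 36 were the high mice and saline 34 the lowest.

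*Klf11* (chromosome 12, 24651274 to 24662789, plus strand), TIEG2, its closest relative, stood at 14.6, 10.4, 11.8, 12.0 and 13.3 CPM in the ethanol mice, against 14.1, 10.3, 25.9, 13.9 and 11.3 CPM in the saline mice. Saline 36 alone lay outside the range of the others. The log2 fold change was -0.29 ± 0.23 (SE, FDR = 0.634), a ratio of 0.82 with a 95% interval from 0.58 to 1.16, and without saline 36 it was -0.0077. With saline 36 and ethanol 60 both left out it was 0.0025, and with 1 surrogate variable 0.13.

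*Klf13* (chromosome 7, 63886351 to 63938915, minus strand), a SIN3A-recruiting factor known from T cells and the heart, held 38.3, 50.3, 42.2, 51.0 and 35.5 CPM with ethanol, against 34.5, 34.5, 49.7, 34.2 and 35.8 CPM with saline. Of the saline libraries 4 lay between 34.2 and 35.8 CPM and saline 36 far above them, in the upper ethanol range. Its log2 fold change stood at 0.20 ± 0.13 (SE, edgeR FDR = 0.526), a ratio of 1.15 with a 95% interval from 0.95 to 1.39. Without saline 36 it was 0.32 (edgeR FDR = 0.383), and without ethanol 60 it was 0.14.

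**Figure D4:**
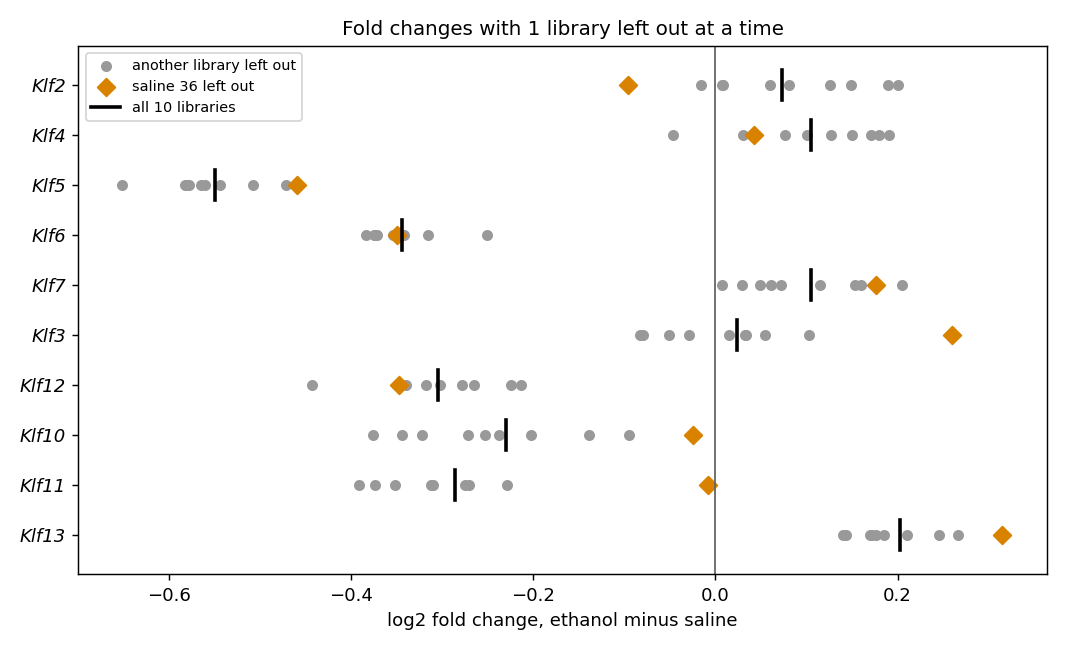
Log2 fold change of each gene, ethanol minus saline, with all 10 libraries (black bar), with saline 36 left out (orange diamond) and with each other library left out (grey). *Klf5*, *Klf6* and *Klf12* stay below 0 and *Klf13* and *Klf7* above 0 in all 10 fits, while *Klf10* and *Klf11* move to -0.025 and -0.0077 without saline 36.

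How the members ran together from mouse to mouse was read after the mean of each group was taken from log2 CPM, so that the treatment does not enter, with *Klf9* and *Klf15* added. Over the 10 libraries *Klf10* and *Klf11* correlated at r = 0.86 (two-sided exact permutation within groups p = 0.000833, adjusted p = 0.0321 over 66 pairs) and rho = 0.92 (p = 0.00292, adjusted p = 0.0840). *Klf3* correlated with *Klf11* at r = 0.93 (permutation p = 0.00215, adjusted p = 0.0355) and rho = 0.83 (p = 0.0118, adjusted p = 0.122). With *Klf10* it was at r = 0.89 (permutation p = 0.00375, adjusted p = 0.0495) and rho = 0.88 (p = 0.00792, adjusted p = 0.122). *Klf3* and *Klf15* correlated at r = 0.93 (permutation p = 0.00201, adjusted p = 0.0355) and rho = 0.89 (p = 0.00382, adjusted p = 0.0840). Without the 2 libraries farthest from the median of the first gene, saline 34 and saline 36 in each case, r was 0.77 for *Klf10* with *Klf11*, and for *Klf3* it was 0.82 with *Klf11*, 0.78 with *Klf10* and 0.80 with *Klf15*. The relation was weaker for *Klf12* and *Klf13*. *Klf3* and *Klf13* were at r = 0.45 (permutation p = 0.229, adjusted p = 0.458) and rho = 0.22 (p = 0.551, adjusted p = 0.791), and at r = -0.13 without saline 34 and saline 36. *Klf13* was at r = 0.25 with *Klf10* (permutation p = 0.595, adjusted p = 0.721) and 0.42 with *Klf11* (p = 0.260, adjusted p = 0.505). *Klf3* and *Klf12* were at r = 0.24 (permutation p = 0.434, adjusted p = 0.637), and at r = 0.59 without saline 34 and saline 36.

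*Klf2* and *Klf4* correlated at r = 0.73 (permutation p = 0.0194, adjusted p = 0.135) and rho = 0.72 (p = 0.0366, adjusted p = 0.240), and at r = 0.70 without ethanol 60 and saline 36. *Klf2* and *Klf15* were at r = -0.74 (permutation p = 0.0351, adjusted p = 0.178) and rho = -0.57 (p = 0.115, adjusted p = 0.421), a relation that rested on ethanol 60 and saline 36, since r was -0.063 without them. *Klf9* and *Klf15* were at r = 0.89 (permutation p = 0.000972, adjusted p = 0.0321) and rho = 0.96 (p = 0.000625, adjusted p = 0.041), and at r = 0.86 without ethanol 60 and saline 36. Of the 45 pairs of members, 3 passed an adjusted p of 0.05 by r and 0 by rho. Of all 66 pairs 5 passed by r and 1, *Klf9* with *Klf15*, by rho. How often pairs of any tested genes reach such r was not counted, so these counts are not read as a result about the family. Saline 34 and saline 36 were also the least alike of all within-group library pairs (chi-square per degree of freedom 92.8).

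**Figure D5:**
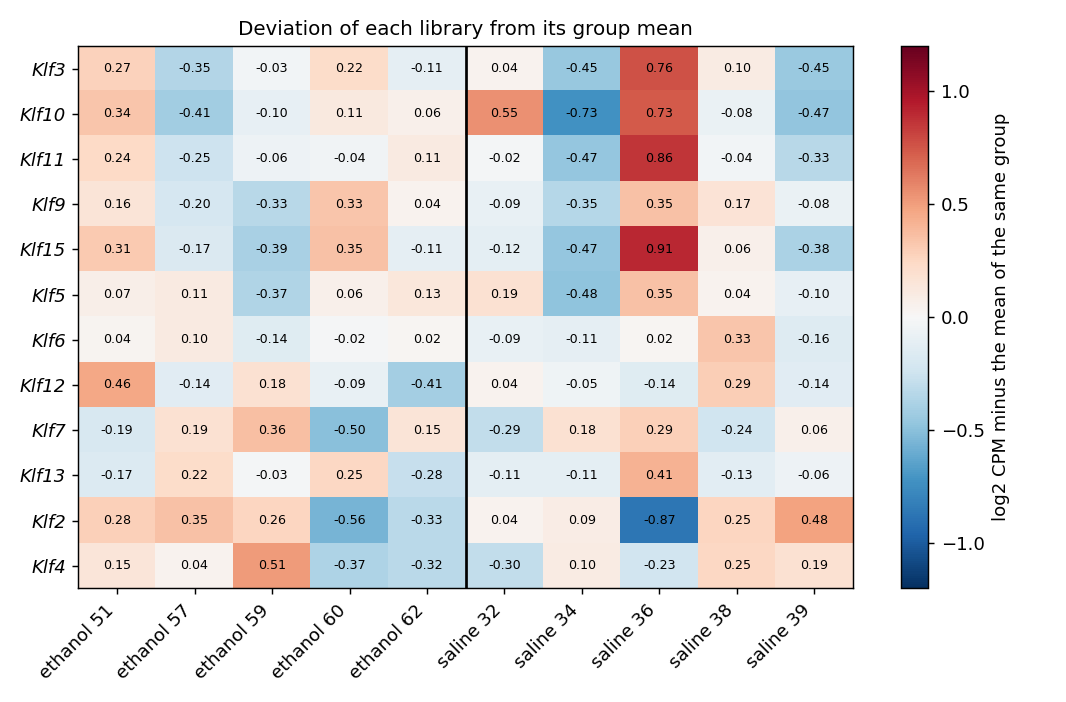
Log2 CPM of each gene in each library minus the mean of that library's group, with ethanol mice left of the line and saline mice right (red above, blue below the group mean, values printed). Saline 36 is at 0.76, 0.73 and 0.86 for *Klf3*, *Klf10* and *Klf11* and at -0.87 for *Klf2*.

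Saline 36 held the highest CPM of 4 of the 10 members, *Klf3*, *Klf5*, *Klf10* and *Klf11*, and the lowest of *Klf2*. Saline 34 held the lowest of *Klf3*, *Klf10* and *Klf11*. How often each library was the highest or lowest over all tested genes was not counted. These counts are therefore not read as a result about the members. *Klf9* and *Klf15*, both known as glucocorticoid-induced, were also highest in saline 36, at 440 and 229 CPM. The log2 fold change of *Klf15* was -0.56 ± 0.27 (SE, edgeR FDR = 0.439), and it was -0.27 without saline 36. For *Klf9* it was -0.24 ± 0.14 (SE, edgeR FDR = 0.507), and it was -0.15 without saline 36.

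The genes most like each member in this centred measure were read from 9089 genes with a mean of at least 5 CPM. They are the top of a long ranking over 10 libraries, which share depth and composition, so r is a description. *Klf2* was most like *Arhgef6* (r = 0.93, rho = 0.94), and *Klf4* like the semaphorin gene *Sema4d* (r = 0.89, rho = 0.87). *Klf5* was most like *Ggt5* (r = 0.95, rho = 0.92) and then *Dcn*, encoding the matrix proteoglycan decorin and one of the fibroblast markers above (r = 0.94, rho = 0.72). Without ethanol 59 and saline 34, r with *Dcn* was 0.70. *Dcn* averaged 561 CPM with ethanol and 571 CPM with saline, a large part of the fibroblast sum, so this likeness is not separate from the reading of that sum. *Klf6* was most like the copper transporter gene *Atp7a* (r = 0.96, rho = 0.89) and *Klf7* like *Poll*, encoding DNA polymerase lambda (r = 0.97, rho = 0.95). *Klf3* was most like *Mlxip*, encoding the glucose-sensing factor MondoA (r = 0.98, rho = 0.96), *Klf10* like the inositol phosphate kinase gene *Ip6k1* (r = 0.95, rho = 0.99), and *Klf11* like *Sorbs3*, encoding the adhesion protein vinexin (r = 0.98, rho = 0.88). *Klf12* was most like *Pi4kb* (r = 0.90, rho = 0.84) and *Klf13* like *Mcf2l* (r = 0.91, rho = 0.65). None of these genes passed FDR 0.05 between the groups.

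Of 7 other family genes in the table, *Klf9*, *Klf15* and *Klf16* were tested, and *Klf16* stood at 3.81 ± 0.65 CPM with ethanol and 3.74 ± 0.36 CPM with saline (SD, n = 5 each). *Klf1*, *Klf8* and *Klf14* had at most 10, 8 and 4 counts in a library and *Klf17* had 0 counts in all. Of 9 SP genes, which bind the same GC boxes, 4 were tested, 3 with negative fold changes, and 1 had an unadjusted p under 0.05: *Sp4* was at 18.3 ± 1.15 CPM with ethanol and 23.1 ± 3.32 CPM with saline (log2 fold change -0.33 ± 0.096, SE, FDR = 0.287), with groups that did not overlap.

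The partners and regulators of the members were read as lists, in none of which a gene passed FDR 0.05 in edgeR's test. Over all tested genes, for comparison with each list, 49.8% of fold changes were negative, the median was 0.00096, and 12.1% had an unadjusted p under 0.05 (5.91% lower and 6.22% higher with ethanol). Among 9 corepressor genes 4 fold changes were negative (median 0.013) and 1 gene had an unadjusted p under 0.05, *Sap30*, a subunit of the SIN3A complex, at 9.67 ± 2.40 CPM with ethanol and 14.6 ± 3.59 CPM with saline (log2 fold change -0.60 ± 0.19, SE, FDR = 0.322). Of 6 ubiquitin ligase genes reported to act on KLF proteins 5 were negative (median -0.19), with *Itch* (-0.27 ± 0.11) and *Smurf2* (-0.23 ± 0.090) lower and *Fbxw7*, whose product marks KLF2 and KLF5 for degradation, higher (0.24 ± 0.11, log2 ± SE) at an unadjusted p under 0.05. Of 11 genes of the ERK5-MEF2 route to *Klf2* and *Klf4*, with the CCM complex that restrains it, 6 were negative (median -0.024), and the kinase genes *Map3k2* (-0.25 ± 0.089) and *Map3k3* (-0.22 ± 0.092) had an unadjusted p under 0.05. Of 9 TGF-beta and SMAD genes upstream of *Klf10* and *Klf11* 4 were negative (median 0.0076), with *Tgfb2* at 0.23 ± 0.091 and *Smad4* at -0.23 ± 0.095 (log2 ± SE).

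Genes downstream of members gave no unadjusted p under 0.05. Of 7 endothelial targets of KLF2 and KLF4, 6 were tested and 4 were positive (median 0.047), with the adhesion gene *Vcam1* at 0.32 ± 0.18 (log2 ± SE). The list does not separate targets that these factors raise from those they lower, so its count and median say nothing of their activity. Of 3 lipid oxidation and uncoupling genes known as KLF5 targets, *Ucp2* was at -0.045 ± 0.17 and *Ucp3* at 0.033 ± 0.18. No level is given for *Cpt1b*: GENCODE M21 lays a readthrough gene over its exons, how reads shared by overlapping genes were counted is not stated, and its counts are uncertain for that reason. Of 20 immediate early genes outside the family 13 were negative (median -0.094), and 4 had an unadjusted p under 0.05, all lower with ethanol, against 49.8% negative and 5.91% lower over all tested genes. They included *Atf3* (-1.39 ± 0.38, log2 ± SE, FDR = 0.287). *Klf6* at -0.34 had a smaller fold change and a smaller error.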

How the data were processed

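Poly(A) RNA libraries were read from a single end at 100 bases, per the labels' protocols. The authors deposited 1 table of raw read counts per gene symbol for 10 libraries. The submitters' processing notes name DESeq2 1.6.3, TopHat2 and mm10 without a role. Which counter, annotation and strand mode made the counts is not given in the sources used here. In 27 rows the symbol had become a date (0.0935% to 0.103% of counts). These stayed in the totals and the fit as unnamed features.

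Genes were kept by filterByExpr (minimum count 10, minimum total 15), scaled by TMM and tested with edgeR 4.0.16's quasi-likelihood F test (robust, ethanol minus saline, Benjamini-Hochberg over 13180 genes, R 4.3.3). SE is the log2 fold change over the square root of F. Log2 CPM carries a prior count of 2. GENCODE M21 (GRCm38), not necessarily the authors' annotation, gave coordinates, exon lengths and GC content. Groups are separate animals, per the labels, and within-group pairs differed by a chi-square per degree of freedom of 13.1 to 92.8. The procedure was tested on simulated data. Alternatives used DESeq2 1.42.0, limma 3.58.1 (voom), sva 3.50.0, RLE or total count scaling, other filters, no robust estimation, GC correction (lowess span 0.3, GC known for 99.3% of tested genes), thinning and left-out libraries. Named were all members, up to 3 genes of each list by smallest p, and the genes most like each member. The members and lists were chosen with earlier results of these data known. For *Klf2* and the other members except *Klf5*, only the first of the 2 most similar genes is printed, and all 66 correlations were computed by permuting mice within each group (14400 arrangements). Marker lists of mural cells, adipocytes, macrophages, satellite cells and Schwann cells were summed per library too.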

Additional observations from a re-analysis of the deposited data

Results flagged for a closer look

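In a group of 5, a sample was flagged when its gap to the nearest other sample, as a share of the group's range, exceeded Dixon's 95% critical value. Of 20 groups of member values, 3 were flagged, where chance flags about 1 in 20 independent groups. These groups share the same libraries and are not independent, and the share flagged over all tested genes was not counted. The count is therefore not read as a result about the members. *Klf5* in ethanol 59, at 3.48 CPM, lay far below the other ethanol libraries, which held 4.68 to 4.93 CPM. *Klf11* in saline 36, at 25.9 CPM, lay far above the other saline libraries, which held 10.3 to 14.1 CPM. *Klf13* in saline 36, at 49.7 CPM, lay far above the other saline libraries, which held 34.2 to 35.8 CPM.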

How the results depend on the processing

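Under the 22 alternatives, 0 members passed FDR 0.05. *Klf6* and *Klf5* kept their sign and an unadjusted p under 0.05 in every alternative (lowest FDR 0.0774 and 0.0768), and *Klf12* and *Klf13* kept their sign. Of 219 values of members, 15 changed sign. With 1 surrogate variable these were *Klf2* at -0.19, *Klf4* at -0.065, *Klf7* at -8.0e-05, *Klf10* at 0.22 and *Klf11* at 0.13. With the GC trend removed *Klf2* was at -0.030, without saline 36 and ethanol 60 *Klf11* was at 0.0025, and without saline 38 and saline 39 *Klf3* was at -0.11. With single libraries left out the ranges were -0.096 to 0.20 for *Klf2*, -0.047 to 0.19 for *Klf4* and -0.082 to 0.26 for *Klf3*. The cause of these sign changes was not tested. Genes past FDR 0.05 numbered 55 with DESeq2 and 7 with 1 surrogate variable, and 0 to 1 with a library left out (1 without ethanol 57 and 1 without saline 34). Members whose groups did not overlap numbered 1 to 2 with a library left out, *Klf12* joining without ethanol 51 and *Klf5* without saline 34. In each case the library left out was the one through which the groups overlapped, so this follows from the choice. Members at an unadjusted p under 0.05 numbered 2 to 3. *Klf7* fell under the filter of a mean of at least 5 CPM. No paired analysis was possible because ethanol and saline mice share no animal number. All ethanol totals were below all saline totals. After thinning to the smallest total, *Klf5* was at -0.38 and *Klf6* at -0.34.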

Other observations

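Markers of other cell types were summed per library. Mural cell markers summed to 412 ± 38.9 CPM with ethanol and 405 ± 50.1 CPM with saline, and macrophage markers to 73.6 ± 12.0 CPM with ethanol and 67.1 ± 9.19 CPM with saline (SD, n = 5 each). Satellite cell markers summed to 41.7 ± 1.40 CPM with ethanol and 38.4 ± 1.95 CPM with saline, and Schwann cell markers to 369 ± 113 CPM with ethanol and 338 ± 75.1 CPM with saline. Adipocyte markers ran from 154 to 688 CPM with ethanol and from 113 to 225 CPM with saline, with the top value in ethanol 60. That mouse had the lowest *Klf2*, *Klf4* and *Klf7* of the ethanol group. The erythroid markers with counts, *Alas2* and *Slc4a1*, summed to between 11.3 and 20.3 CPM with ethanol and between 8.12 and 51.2 CPM with saline. The top value was in saline 36, the mouse with the highest *Klf3*, *Klf10* and *Klf11* and the lowest *Klf2*. That value was nearly all from 1 gene, *Alas2*, which reached 50.3 CPM with saline. The part of these marker sums in the members' values was not tested.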
